A study of Homo sapiens with 12 samples.

Results

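The MYC, PVT1 and MAX network was described by 10 genes, a list of names with no cutoff on expression, of 60671 genes in the count table. They are the transcription factor gene MYC, its neighbour PVT1, which makes a long non-coding RNA (lncRNA), the obligate dimer partner MAX, the MAX partners MXD1, MXD3, MXD4, MXI1, MNT and MGA, and MLX. Every one of the 10 genes passed the filter on low counts, which kept 18626 genes.

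MYC binds DNA as a dimer with MAX, preferentially at the E-box CACGTG, and activates genes of growth, ribosome production and metabolism. The MXD proteins, MXI1 and MNT dimerize with the same MAX protein, occupy the same sites and recruit SIN3 and histone deacetylases to repress transcription, and MXD1 and MXD4 are known from cells leaving the cell cycle. MGA pairs with MAX in a polycomb repressor complex, and MLX is a MAX-like protein that pairs with the glucose-sensing factors MLXIP (MondoA) and MLXIPL (ChREBP). PVT1 lies next to MYC on the same strand, and its promoter is known to compete with that of MYC for enhancers.

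RNA-seq counts of K562 cells and of 2 lines derived from them, K/VP.5 and the edited K562/SSedit-2, were compared, with 4 replicates of each. K562 is a human leukemia line with erythroid and megakaryocytic features that depends on BCR-ABL1, and it was the parental line here. K/VP.5 is a clone selected from K562 by exposure to etoposide, a drug that traps DNA topoisomerase IIα (TOP2α) on DNA, and K562/SSedit-2 is a single K562 clone in which Cas9, a guide RNA and a repair template were used to silence the 5′ splice site between exon and intron 19 of TOP2A, with an unedited allele remaining. The cells were growing in DMEM with fetal bovine serum, in mid-log phase and with no drug named for these samples. Both K/VP.5 and K562/SSedit-2 are single clones, so the effect of selection or editing and differences between clones cannot be told apart. The labels do not say whether the replicates were separate cultures, so p-values measure the spread between these samples, which may be technical.

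Total counts ranged from 28981722 to 43648830 per sample. TOP2A, the edited gene, was below K562 in both derived lines, with log2 fold changes of -0.55 for K/VP.5 and -1.07 for K562/SSedit-2. The summed level of 9 erythroid markers, none of them at 0 in any sample, was 3700 to 4700 CPM (CPM is the count scaled to a library of 1000000 counts) in K562, 3000 to 3320 CPM in K/VP.5 and 4910 to 5420 CPM in K562/SSedit-2. Of 10 markers of other cell types, CD3E, CD79A, PAX5 and ALB were at or below 0.35 CPM in every sample, whereas EPCAM (121 to 196 CPM) and KRT18 (177 to 269 CPM) were expressed in all 3 lines. Of the others, PECAM1 was at 0.169 to 0.45 CPM in K/VP.5 and 19 to 42.6 CPM elsewhere, and COL1A1 at 18 to 26.7 CPM in K/VP.5 and 1.24 to 4.26 CPM elsewhere. The summed level of these 10 was 357 to 505 CPM in K562, 334 to 345 CPM in K/VP.5 and 407 to 477 CPM in K562/SSedit-2, and their part in the results below was not tested. K562 replicate 1 stood apart from the other K562 replicates, with a chi-square per degree of freedom of 53.5 to 56.4 against them, compared to 5.87 to 17.8 among the other 3. Member calls, and those counts of the lists printed below, that change without it are given both ways.

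In K/VP.5 cells, MYC was higher and PVT1 was lower than in K562 cells, so that the balance between these neighbouring genes shifted about 2.1-fold. The repressor genes moved in different directions: MXD1 was higher, whereas MXD4 and MXI1 were lower. MLX, the MAX-like gene, was lower as well, and MAX, MXD3, MNT and MGA did not pass the test. In all, 6 of the 10 genes were called at 10% false discovery rate (FDR) by the quasi-likelihood test of edgeR, 2 higher and 4 lower. This share is to be read against all tested genes, of which 52.3% were called in the same comparison (26.2% higher and 26.1% lower). With upper-quartile scaling the split over all tested genes was 5777 higher and 4191 lower, compared to 4882 and 4865. No member passed the additional cutoff of a 2-fold change, which 15.6% of all tested genes did. In bulk RNA, fewer cells that express a gene and less of its RNA per cell cannot be told apart.

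In K562/SSedit-2 cells fewer members were called against K562. MYC and MXD4 were lower and MXD1 was higher, each by at most 1.24-fold, and the other 7 genes did not pass the test. The 3 called members of 10 compare with 12.6% of all tested genes (4.86% higher and 7.79% lower), and none reached 2-fold, as 2.06% of all tested genes did. These calls were not stable. Of 12 fits that each left out a sample, MYC was called in 0, MXD1 in 7 and MXD4 in 10. Without K562 replicate 1, the called members were MXD1, MXD4 and MXI1. With upper-quartile scaling in place of TMM, the split over all tested genes in this comparison was 1200 higher and 1241 lower, compared to 905 and 1451, and with no filter on low counts it was 754 and 2007. Between the derived lines, 6 of 10 members differed, MYC and MXD1 being lower and PVT1, MXD4, MXI1 and MLX higher in K562/SSedit-2 when set against K/VP.5, with a background of 54% (26.2% higher and 27.8% lower) and 15.8% at 2-fold, which no member reached. The 3 comparisons share samples and are not independent.

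**Figure D1:**
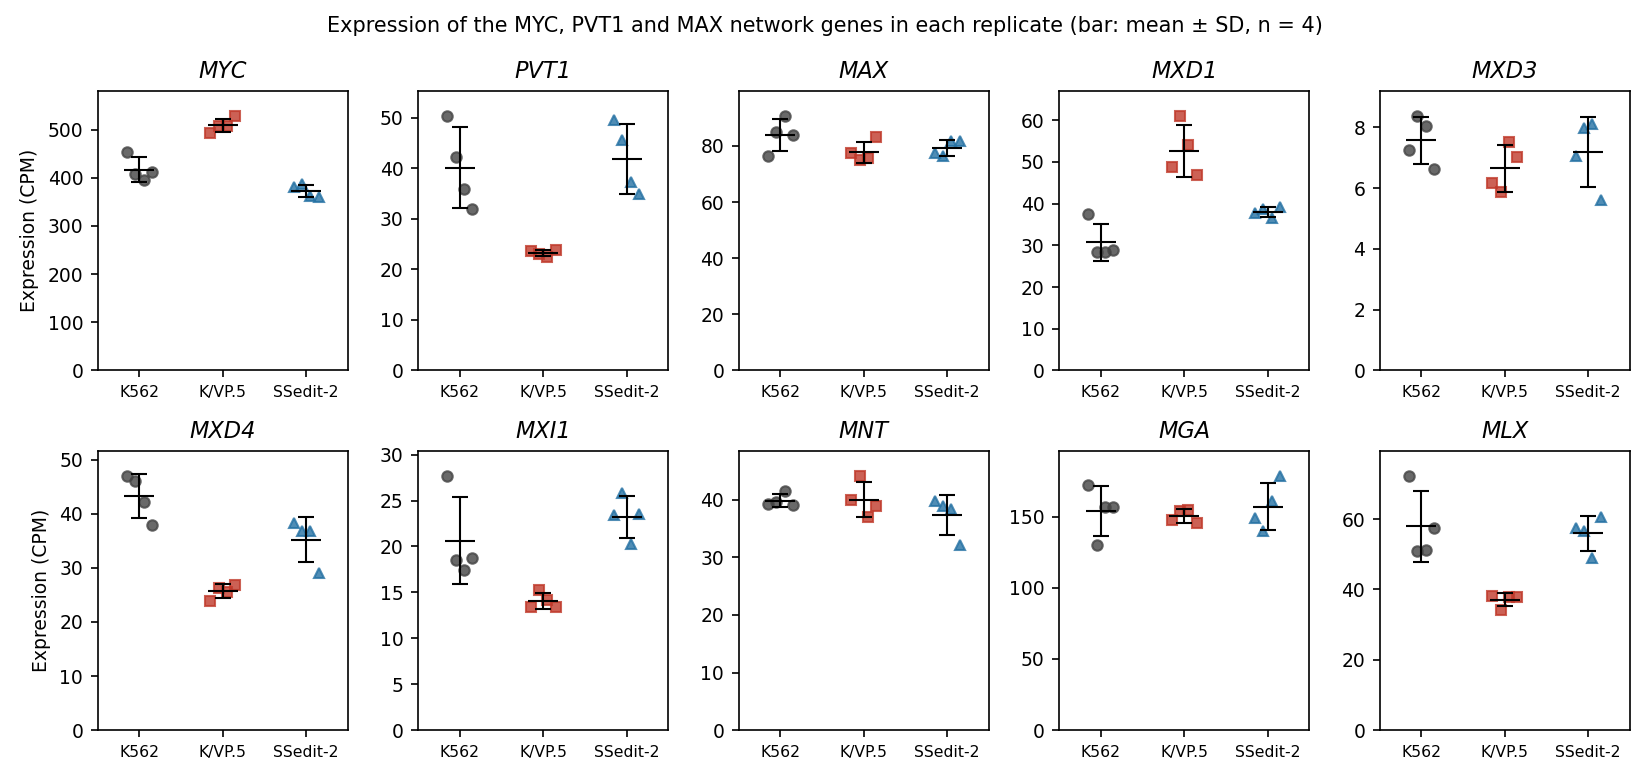
Expression of the 10 network genes in CPM (y axes, each starting at 0 with its own scale) in each replicate of K562 (circles), K/VP.5 (squares) and K562/SSedit-2 (triangles), with the mean and SD of 4 replicates in black. For PVT1, MXD4, MXI1 and MLX the 4 K/VP.5 replicates lie below all other samples, and for MYC and MXD1 they lie above them.

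MYC (ENSG00000136997) lies on the plus strand of chromosome 8 in GRCh38, from 127735434 to 127742951. It was expressed at 453, 407, 396 and 411 CPM in K562 replicates 1 to 4, at 492, 506, 508 and 527 CPM in K/VP.5, and at 379.9, 386, 362 and 361 CPM in K562/SSedit-2. The 3 lines did not overlap, with every K/VP.5 sample above and every K562/SSedit-2 sample below the K562 samples. Compared to K562, where the mean was 417 ± 25.2 CPM (SD, n = 4), MYC in K/VP.5 was 508 ± 14.3 CPM (SD, n = 4), with log2 fold change 0.29 (standard error 0.058, Benjamini-Hochberg adjusted p = 6.59e-04 by edgeR). This 1.22-fold difference was called in all 12 fits that left out a sample, with log2 fold changes of 0.24 to 0.31.

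In K562/SSedit-2, MYC was 372 ± 12.9 CPM (SD, n = 4), with log2 fold change -0.16 from K562 (standard error 0.058, adjusted p = 0.0984 by edgeR). The samples of the lines were fully separated, and a two-sided exact permutation of the sample labels gave p = 0.029, as low as 4 samples against 4 can go. A test over the 4 pairs of same-numbered samples of these lines, which varied together, could not go below p = 0.13 by exact sign flips. The call stood close to the threshold and was lost in each of the 12 fits that left out a sample, where the log2 fold change was -0.19 to -0.12 and the adjusted p by edgeR 0.107 to 0.24. It was also lost with DESeq2 size factors (-0.158), with upper-quartile scaling (-0.13), without a filter on low counts (-0.19) and when only the 2 lines were fitted (-0.15). Without K562 replicate 1, the highest K562 sample, it was -0.12 (adjusted p = 0.147 by edgeR). Between the derived lines, MYC was lower in K562/SSedit-2, with log2 fold change -0.45 (standard error 0.058, adjusted p = 7.42e-06 by edgeR).

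PVT1 (ENSG00000249859) starts on the same strand downstream of MYC and extends from 127794526 to 128187101 on chromosome 8. Its gene model joins 190 annotated transcripts into 25431 bp of exon, which a single count per sample sums, so isoforms and circular forms were not separated. PVT1 was expressed at 50.3, 42.3, 35.9 and 32.0 CPM in K562, at 23.7, 23.1, 22.4 and 23.8 CPM in K/VP.5, and at 49.5, 45.7, 37.2 and 35 CPM in K562/SSedit-2. Every K/VP.5 sample was below every other sample, and K562 and K562/SSedit-2 covered nearly the same range.

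PVT1 in K/VP.5 was 1.73-fold below K562 (log2 fold change -0.79, standard error 0.13, adjusted p = 1e-04 by edgeR), and the log2 fold change was -0.68 without K562 replicate 1. In K562/SSedit-2 its difference from K562 was 0.06 on the log2 scale, with a 95% interval of -0.23 to 0.35 (adjusted p = 0.83 by edgeR). Between the derived lines, it was higher in K562/SSedit-2 (log2 fold change 0.85, standard error 0.13, adjusted p = 4.51e-05 by edgeR).

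Within each sample, PVT1 and MYC can be set against each other without scaling between libraries. K562 had 11.1, 10.4, 9.06 and 7.79 PVT1 counts per 100 MYC counts, K/VP.5 had 4.81, 4.56, 4.41 and 4.51, and K562/SSedit-2 had 13.0, 11.8, 10.3 and 9.71. The K/VP.5 samples were close together and below all others. The mean was 9.58 ± 1.46 (SD, n = 4) in K562 and 4.57 ± 0.171 (SD, n = 4) in K/VP.5, 2.1-fold lower, and the samples were separate (two-sided exact permutation test, p = 0.029). In K562/SSedit-2 the mean of 11.2 ± 1.51 (SD, n = 4) overlapped with K562 (two-sided exact permutation test, p = 0.2). Between samples of the same replicate number, which were found to vary together in these lines, the ratio was higher in K562/SSedit-2 in 4 of 4 pairs by a mean of 1.63 counts per 100, and the exact sign-flip test over pairs, added after the values were seen, gave p = 0.13, as low as 4 pairs can go.

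**Figure D2:**
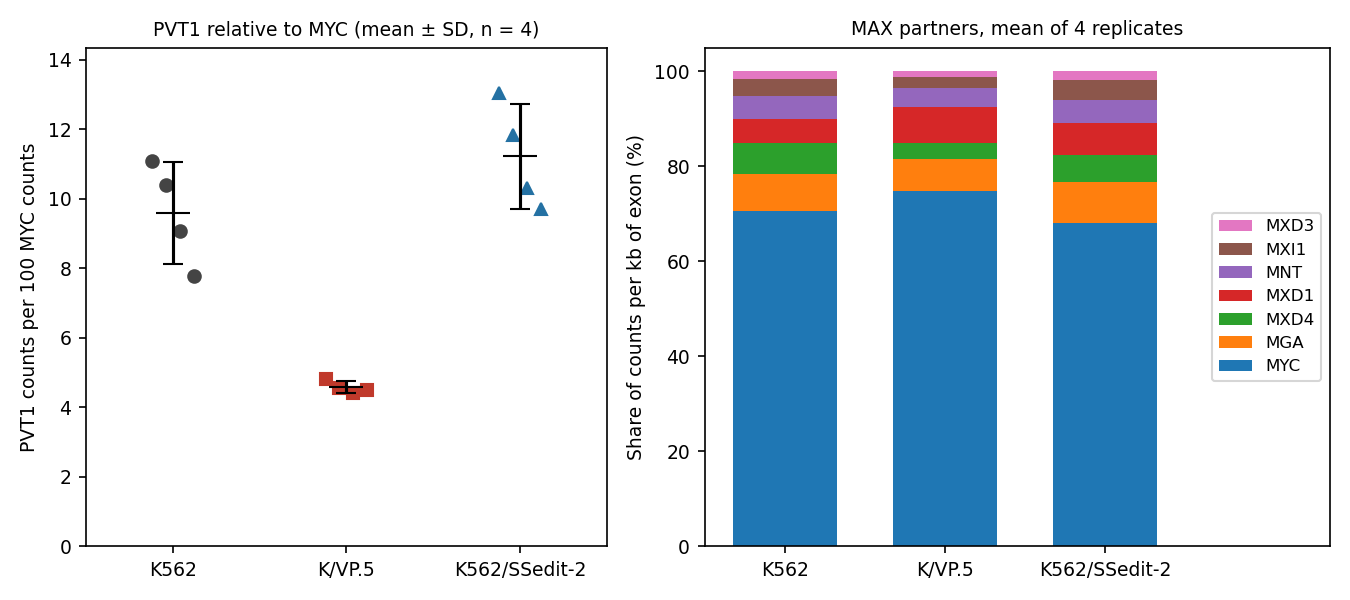
Left, PVT1 counts per 100 MYC counts in each replicate with mean ± SD (n = 4): K/VP.5 lies between 4.41 and 4.81, below the K562 range of 7.79 to 11.1. Right, mean share of each MAX partner gene in their summed counts per kilobase of exon (percent, bars from 0 to 100), in which MYC makes up 70.6% for K562, 74.9% for K/VP.5 and 68.0% for K562/SSedit-2.

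MAX (ENSG00000125952, chromosome 14, 65006174 to 65102695, minus strand) encodes the partner that MYC, the MXD proteins, MXI1, MNT and MGA share. It was expressed at 76.5 to 90.5 CPM in K562, 74.9 to 83.1 CPM in K/VP.5 and 76.4 to 81.7 CPM in K562/SSedit-2, and the 3 ranges overlapped. The log2 fold change from K562 was -0.11 in K/VP.5 (95% interval -0.26 to 0.037, adjusted p = 0.183 by edgeR) and -0.08 in K562/SSedit-2 (95% interval -0.23 to 0.065, adjusted p = 0.511 by edgeR). Without K562 replicate 1, the lowest K562 sample for MAX, the K/VP.5 value was -0.17 and was called (adjusted p = 0.0247 by edgeR).

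MXD1 (ENSG00000059728, chromosome 2, 69897688 to 69942945, plus strand) encodes the repressor first known as MAD. It was expressed at 37.4, 28.3, 28.3 and 28.8 CPM in K562, at 48.8, 60.9, 54.1 and 46.9 CPM in K/VP.5, and at 37.8, 38.6, 36.5 and 39.3 CPM in K562/SSedit-2. K/VP.5 was above both other lines in every sample, and K562/SSedit-2 overlapped with K562 through K562 replicate 1 alone. MXD1 was 1.72-fold higher in K/VP.5 than in K562 (log2 fold change 0.78, standard error 0.0996, adjusted p = 6.86e-06 by edgeR).

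In K562/SSedit-2, MXD1 was above K562 with log2 fold change 0.31 (standard error 0.0997, adjusted p = 0.0685 by edgeR). The exact two-sided permutation test gave p = 0.0571. MXD1 was higher in K562/SSedit-2 in every same-numbered pair of these lines, where an exact sign-flip test over the 4 pairs could not go below p = 0.13. The call held in 7 of the 12 fits that left out a sample, and without K562 replicate 1 the value was 0.42 (adjusted p = 0.00197 by edgeR). Thus MXD1 was the member called higher than in K562 in both derived lines, and between these lines it was lower in K562/SSedit-2 (log2 fold change -0.47, adjusted p = 9.01e-04 by edgeR).

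MXD4 (ENSG00000123933, chromosome 4, 2247432 to 2262109, minus strand) went the other way. It was expressed at 47.0, 46.1, 42.2 and 38.0 CPM in K562, at 23.9, 26.3, 25.5 and 26.9 CPM in K/VP.5, and at 38.3, 36.8, 36.8 and 29.0 CPM in K562/SSedit-2. K/VP.5 lay below both other lines, and K562/SSedit-2 overlapped with K562 in its highest sample. The log2 fold change from K562 was -0.75 in K/VP.5 (standard error 0.093, adjusted p = 4.8e-06 by edgeR), a 1.69-fold decrease. In K562/SSedit-2 it was -0.30 (standard error 0.092, adjusted p = 0.0601 by edgeR, two-sided exact permutation p = 0.0571), and the call held in 10 of the 12 fits that left out a sample. MXD4 was lower in K562/SSedit-2 in every same-numbered pair of these lines, where an exact sign-flip test over the 4 pairs could not go below p = 0.13.

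MXI1 (ENSG00000119950, chromosome 10, 110207605 to 110287365, plus strand), the MXD2 gene, was expressed at 27.7, 18.6, 17.5 and 18.8 CPM in K562, at 13.4, 15.2, 14.2 and 13.4 CPM in K/VP.5, and at 23.4, 25.8, 20.2 and 23.5 CPM in K562/SSedit-2. The K/VP.5 samples were the lowest, and K562 replicate 1 was far above the other K562 samples and above all K562/SSedit-2 samples. In K/VP.5, MXI1 was 1.47-fold lower than in K562 (log2 fold change -0.55, standard error 0.128, adjusted p = 0.00212 by edgeR), and the log2 fold change was -0.40 without K562 replicate 1. In K562/SSedit-2 the log2 fold change was 0.17 with all samples (adjusted p = 0.463 by edgeR) and 0.35 without K562 replicate 1 (adjusted p = 0.0131 by edgeR), so the call there depends on that sample.

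The other MAX partners were not called against K562 in either line. MXD3, a family member known from proliferating cells, was expressed at 5.61 to 8.36 CPM over all samples, with log2 fold changes of -0.19 in K/VP.5 (95% interval -0.49 to 0.108) and -0.08 in K562/SSedit-2 (95% interval -0.37 to 0.223). MNT, the widely expressed repressor, was at 32.2 to 44.1 CPM, with log2 fold changes of 0.0050 (95% interval -0.17 to 0.182) and -0.09 (95% interval -0.27 to 0.083). MGA was at 130.0 to 178 CPM, with log2 fold changes of -0.03 (95% interval -0.23 to 0.162) and 0.03 (95% interval -0.17 to 0.224). For these 3 genes the replicates of every pair of lines overlapped, and with 4 replicates a line a difference anywhere within these intervals remains possible.

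MLX (ENSG00000108788, chromosome 17, 42567072 to 42573239, plus strand) was expressed at 72.2, 50.8, 51.2 and 57.3 CPM in K562, at 38.2, 34.2, 37.8 and 37.9 CPM in K/VP.5, and at 57.3, 56.7, 48.9 and 60.6 CPM in K562/SSedit-2. Every K/VP.5 sample was below every other sample. The decrease in K/VP.5 compared to K562 was 1.56-fold (log2 fold change -0.64, standard error 0.103, adjusted p = 7.51e-05 by edgeR), and the log2 fold change was -0.54 without K562 replicate 1. In K562/SSedit-2 the log2 fold change from K562 was -0.05 (95% interval -0.28 to 0.181, adjusted p = 0.832 by edgeR).

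**Figure D3:**
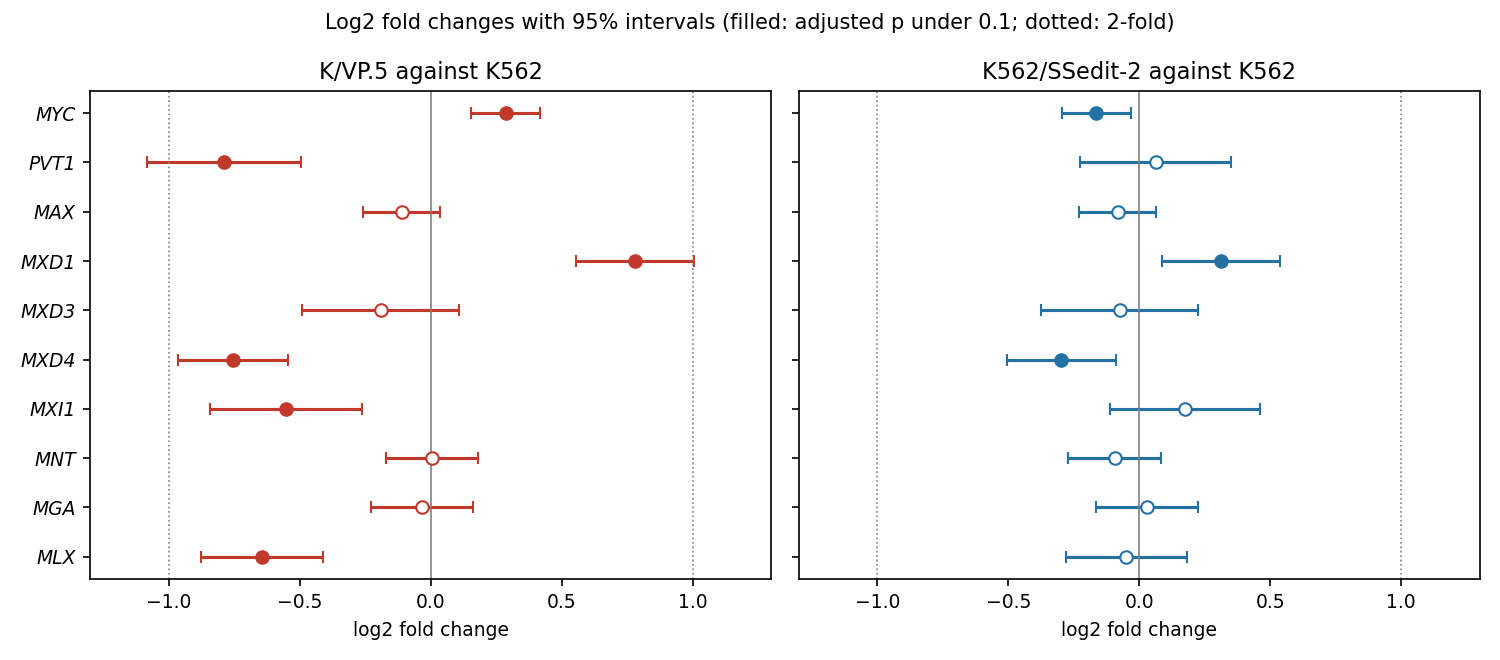
Log2 fold changes of the 10 network genes in K/VP.5 (left) and K562/SSedit-2 (right) against K562 on the x axes, with 95% intervals from edgeR over 4 replicates a line, filled where the adjusted p was under 0.1, and dotted lines at a 2-fold change. In K/VP.5, 6 genes are filled on both sides of 0, and in K562/SSedit-2, 3 genes are filled and lie closer to 0.

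Levels can be compared between genes only per length of exon. In CPM per kilobase of exon, the order in K562 was MYC (68.2 ± 4.13, SD, n = 4), MLX (13.6 ± 2.35), MAX (13.4 ± 0.922), MGA (7.66 ± 0.87), MXD4 (6.30 ± 0.596), MXD1 (4.83 ± 0.707), MNT (4.58 ± 0.128), MXI1 (3.49 ± 0.800), MXD3 (1.6 ± 0.164) and PVT1 (1.58 ± 0.314). MYC stood well above the others, and the replicates of MLX and MAX, of MXD3 and PVT1, and of each neighbouring pair from MGA to MXI1 overlapped. In K/VP.5, MXD1 moved up to the fourth place (8.29 ± 0.987), where it overlapped with MLX (8.70 ± 0.44) and MGA (7.49 ± 0.234), MAX preceded MLX, and MXD4 came after MNT (3.74 ± 0.187 and 4.60 ± 0.345). In K562/SSedit-2 the order was that of K562 except that MXD1 (5.99 ± 0.188) preceded MXD4 (5.12 ± 0.611) without overlap, and that PVT1 and MXD3, which overlapped, changed places. The order depends on the length used. With the longest annotated transcript in place of all exons, chosen after the values were seen, PVT1 came directly after MAX and MLX in K562 (16.4 ± 3.26 CPM per kilobase, SD, n = 4) and in K562/SSedit-2, and in the latter MXD4 (8.33 ± 0.994, SD, n = 4) came before MXD1 (6.82 ± 0.214, SD, n = 4).

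Among the genes that share MAX as a partner (MYC, MXD1, MXD3, MXD4, MXI1, MNT and MGA), the share of MYC in the summed counts per kilobase was 70.6% ± 0.79 (SD, n = 4) in K562, 74.9% ± 1.19 (SD, n = 4) in K/VP.5 and 68.0% ± 0.534 (SD, n = 4) in K562/SSedit-2. The lines were separate in every sample, and each derived line against K562 gave p = 0.029 in the exact permutation test, two-sided, which ignores the replicate numbers. For K562/SSedit-2, where same-numbered samples varied together, an exact test over the 4 pairs could not go below p = 0.13. MXD1 made up 4.98% ± 0.378 (SD, n = 4) in K562, 7.46% ± 0.827 (SD, n = 4) in K/VP.5 and 6.69% ± 0.267 (SD, n = 4) in K562/SSedit-2 (two-sided exact permutation test, p = 0.029 for both against K562). MXD4 made up 6.52% ± 0.532 (SD, n = 4), 3.36% ± 0.091 (SD, n = 4) and 5.71% ± 0.598 (SD, n = 4) in the same order (p = 0.029 and p = 0.0857 by the same exact test). The share of MXD1 was above that of MXD4 in both derived lines and below it in K562, but with the longest transcript as length this held for K/VP.5 (5.32% and 3.42%) and not for K562/SSedit-2 (4.76% and 5.80%). These are shares of RNA counts and say nothing of protein.

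Some counts may hold reads of overlapping genes, because the setting for strand was not given in the sources used here. Exons of MLX overlap those of PSMC3IP on the other strand by 775 bp, and PSMC3IP moved the other way in K/VP.5 (log2 fold change 0.35, adjusted p = 0.00917 by edgeR). MXD3, with 188 to 363 counts per sample, overlaps PRELID1 by 1148 bp on the other strand and RAB24 by 926 bp on its own strand, and PRELID1 was counted 4024 to 7873 times, so the count of MXD3 is uncertain. The exons of MAX share 822 bp with FNTB on the other strand (98 to 243 counts), and MYC shares 194 bp with the antisense lncRNA CASC11, which had 1 to 14 counts per sample.

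The bases before the transcription start were read for the members in the RefSeq promoter table (GRCh38.p14), which held 13 start sites for the 8 members other than MYC and PVT1. The E-box CACGTG, which reads the same on both strands, was found in the 250 bases before the start of MXD4, MNT and MLX, that is at 3 of the 13 sites, compared to 6.34% of 35116 promoters in the table. The stretches of MXD4 and MLX, the E-box-bearing members called lower in K/VP.5, read as follows, 5′ to 3′ on the strand of the gene with the E-box in capitals. That of MXD4 is chr4:2262110-2262359 on the minus strand, where the E-box starts 238 bases before the start site. That of MLX is chr17:42566850-42567071 on the plus strand, ending before annotated exon, and its E-box starts 50 bases before the start site.
MXD4: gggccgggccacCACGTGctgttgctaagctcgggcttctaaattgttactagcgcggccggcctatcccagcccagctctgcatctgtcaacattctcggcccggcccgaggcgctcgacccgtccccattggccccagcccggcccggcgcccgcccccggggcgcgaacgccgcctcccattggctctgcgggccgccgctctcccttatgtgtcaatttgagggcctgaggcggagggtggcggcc
MLX: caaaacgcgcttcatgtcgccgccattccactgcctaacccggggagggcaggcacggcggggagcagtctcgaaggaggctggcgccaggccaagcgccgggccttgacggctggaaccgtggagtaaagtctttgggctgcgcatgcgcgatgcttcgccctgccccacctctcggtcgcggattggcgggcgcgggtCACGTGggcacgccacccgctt
A match describes these letters and does not show binding. Start sites of MAX, MXD1, MXD3, MXI1 and MGA in the table had no CACGTG in this window.

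Of 3 known targets of MLX dimers, ARRDC4 was 8.50-fold and TXNIP 2.02-fold lower in K/VP.5, and KLF10 was not called. With 3 genes, this count cannot be set apart from the 52.3% called of all tested genes (26.1% lower). TXNIP, which blocks glucose uptake, and ARRDC4, its arrestin relative, are known targets of MLX dimers in the response to glucose. TXNIP was expressed at 352, 232, 231 and 214 CPM in K562, at 148, 133, 128 and 100 CPM in K/VP.5, and at 387, 313, 330 and 294 CPM in K562/SSedit-2. ARRDC4 was expressed at 18.4, 9.44, 8.85 and 7.05 CPM in K562, at 2.05, 1.12, 1.01 and 0.847 CPM in K/VP.5, and at 23.0, 12.7, 13.3 and 12.4 CPM in K562/SSedit-2. For both genes all K/VP.5 samples were the lowest, and replicate 1 was the highest of its line in all 3 lines.

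For TXNIP, the difference of K/VP.5 from K562 was called (log2 fold change -1.02, standard error 0.146, adjusted p = 2.54e-05 by edgeR). So was that of ARRDC4 (log2 fold change -3.09, standard error 0.338, adjusted p = 1.23e-06 by edgeR). Without K562 replicate 1 the log2 fold changes were -0.85 and -2.73. KLF10, the third gene of the list, did not pass the test (log2 fold change -0.05, adjusted p = 0.859 by edgeR).

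In K562/SSedit-2 none of these 3 genes passed the edgeR test against K562 (TXNIP alone had an unadjusted p under 0.05, DESeq2 called 1 and limma voom 0), compared to 12.6% of all tested genes, with log2 fold changes of 0.36 for TXNIP (adjusted p = 0.141 by edgeR) and 0.49 for ARRDC4 (adjusted p = 0.32 by edgeR). With the replicate number as a block in edgeR, TXNIP (0.38, adjusted p = 0.00572) and ARRDC4 (0.53, adjusted p = 0.00269) were called higher, and both were also called without K562 replicate 1 (0.55 and 0.86). The block also raised the calls over all tested genes, from 2356 to 3063. The numbers of K562 and K562/SSedit-2 samples varied together, as described in the methods.

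Of the partners of MLX, MLXIP was expressed at 283 to 388 CPM in all samples and did not pass the test (log2 fold change 0.12 in K/VP.5, adjusted p = 0.218 by edgeR). MLXIPL was expressed at 2.89, 2.12, 1.48 and 1.12 CPM in K562 and at 5.15, 5.56, 4.31 and 5.59 CPM in K/VP.5, where it was higher (log2 fold change 1.44, standard error 0.222, adjusted p = 5.08e-05 by edgeR). It was at 1.84, 1.55, 1.72 and 1.31 CPM in K562/SSedit-2, within the K562 range. Thus in K/VP.5 MLX was lower and the weakly expressed MLXIPL was higher, whereas the far more abundant MLXIP did not differ detectably.

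**Figure D4:**
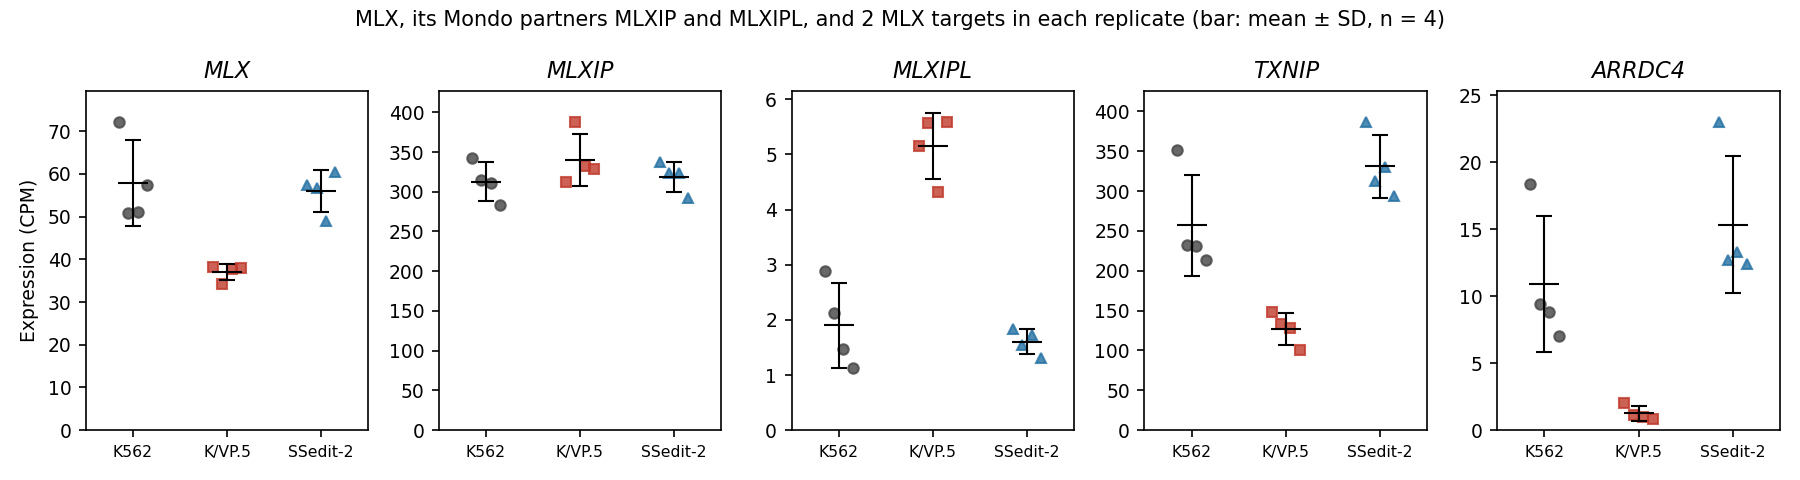
Expression of MLX, its partners MLXIP and MLXIPL and the targets TXNIP and ARRDC4 in CPM (y axes from 0, each with its own scale) in each replicate of K562 (circles), K/VP.5 (squares) and K562/SSedit-2 (triangles), with mean ± SD (n = 4) in black. The K/VP.5 samples are the lowest for MLX, TXNIP and ARRDC4 and the highest for MLXIPL.

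The stretches before the start sites of TXNIP and ARRDC4 are shown because these were the MLX targets that were lower in K/VP.5. The table lists 2 start sites for TXNIP. The stretch shown is chr1:145996580-145996829 on the minus strand, and the other, chr1:145995745-145995994, holds neither motif. The stretch shown holds a pair of E-box-like elements 5 bases apart, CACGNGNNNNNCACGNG, as carbohydrate response elements have, starting 88 bases before the start site, a pattern found on either strand in 0.0456% of the 35116 promoters. That of ARRDC4 is chr15:97960453-97960702 on the plus strand and holds a CACGTG that starts 210 bases before the start site, but no such pair. Capitals mark these motifs.
TXNIP: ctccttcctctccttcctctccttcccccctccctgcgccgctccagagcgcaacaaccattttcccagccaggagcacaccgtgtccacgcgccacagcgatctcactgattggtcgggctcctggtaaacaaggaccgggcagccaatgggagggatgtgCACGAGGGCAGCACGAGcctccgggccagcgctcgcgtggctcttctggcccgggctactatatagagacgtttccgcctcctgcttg
ARRDC4: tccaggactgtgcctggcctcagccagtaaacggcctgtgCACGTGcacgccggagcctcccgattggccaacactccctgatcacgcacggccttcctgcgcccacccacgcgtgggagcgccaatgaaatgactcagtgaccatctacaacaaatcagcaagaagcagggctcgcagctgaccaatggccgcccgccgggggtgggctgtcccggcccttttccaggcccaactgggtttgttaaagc
Again, the letters are a description and were not tested as binding sites.

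Known MYC targets moved in both directions in both lines. The counts of each list are to be read against all tested genes, of which K/VP.5 had 26.2% higher and 26.1% lower, whereas K562/SSedit-2 had 4.86% higher and 7.79% lower. In K/VP.5, 5 of 19 ribosome biogenesis targets were higher and 4 lower, with a median log2 fold change of 0.08, 7 of 22 metabolic targets were higher and 7 lower (median -0.01), and 3 of 8 cell cycle targets were higher and 2 lower (median 0.13), compared to a median of 0.0068 over all tested genes. Without K562 replicate 1, 4 ribosome biogenesis targets were higher and 5 lower, and 7 metabolic targets were higher and 6 lower. CCND2, which encodes cyclin D2, rose most, from 115 ± 7.01 CPM (SD, n = 4) in K562 to 323 ± 12 CPM (SD, n = 4), followed by TERT, the catalytic subunit of telomerase, from 13.1 ± 2.08 CPM (SD, n = 4) to 33.2 ± 3.93 CPM (SD, n = 4). CTPS1 (log2 fold change 0.51), ODC1 (0.44) and TYMS (0.43), enzymes of CTP, polyamine and thymidylate synthesis, were higher as well. Of the cell cycle targets, TFAP4 was lower (log2 fold change -0.43, adjusted p = 1.05e-04 by edgeR).

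The nucleolar proteins PES1 (log2 fold change 0.31), BOP1 (0.28) and NOP56 (0.27) were higher in K/VP.5, and LYAR (-0.71), NOLC1 (-0.39) and DKC1 (-0.35), also of the nucleolus, were lower. Of metabolic targets, lactate dehydrogenase LDHA (-0.59), the transferrin receptor TFRC (-0.50) and PRPS2 (-0.48), an enzyme of nucleotide precursor synthesis, were lower. Each of these had an adjusted p of at most 0.0205 by edgeR.

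Of 14 tested genes that MYC is known to repress, 6 were higher and 4 lower in K/VP.5 (median log2 fold change 0.12). The stress gene GADD45A (0.74), the cyclin-dependent kinase inhibitor CDKN2C (0.71) and the transcription factor KLF6 (0.61) were higher. NDRG1, a differentiation and stress gene that MYC represses, was lower there (14.4 ± 3.30 CPM, SD, n = 4, compared to 24.9 ± 4.52 CPM, SD, n = 4, in K562, log2 fold change -0.78, adjusted p = 2.02e-04 by edgeR). Without K562 replicate 1 the list had 6 genes higher and 3 lower.

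In K562/SSedit-2, the same lists had 1 higher and 1 lower of 19 ribosome biogenesis targets, 2 and 1 of 22 metabolic targets, 1 and 2 of 8 cell cycle targets, and 2 and 0 of 14 repressed genes, with medians of -0.05, -0.0020, -0.05 and 0.12. NDRG1 rose to 55.2 ± 2.78 CPM (SD, n = 4), a 2.22-fold increase over K562 (log2 fold change 1.15, adjusted p = 4.3e-05 by edgeR), and GADD45A was higher by 0.58. CCND2 (0.36) and TFRC (0.36) were higher and the folate carrier SLC19A1 (-0.40) lower. With the replicate block, 5 of the 14 repressed genes were called, all higher: NDRG1, GADD45A, SAT1, KLF6 and NDRG2. The block also raised the calls over all 18626 tested genes from 2356 to 3063, of which 1182 were higher and 1881 lower. Without K562 replicate 1, 1 of the 19 ribosome biogenesis targets was higher and 4 were lower, 3 of the 14 repressed genes were higher and 1 lower, 1 of the 8 cell cycle targets was higher and 3 were lower, and 2 of the 22 metabolic targets were higher and 2 lower. Leaving out other samples also moved these counts, to 0 called ribosome biogenesis targets without K562 replicate 2, 1 called cell cycle target without K562/SSedit-2 replicate 4 and 5 called repressed genes without K/VP.5 replicate 1.

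**Figure D5:**
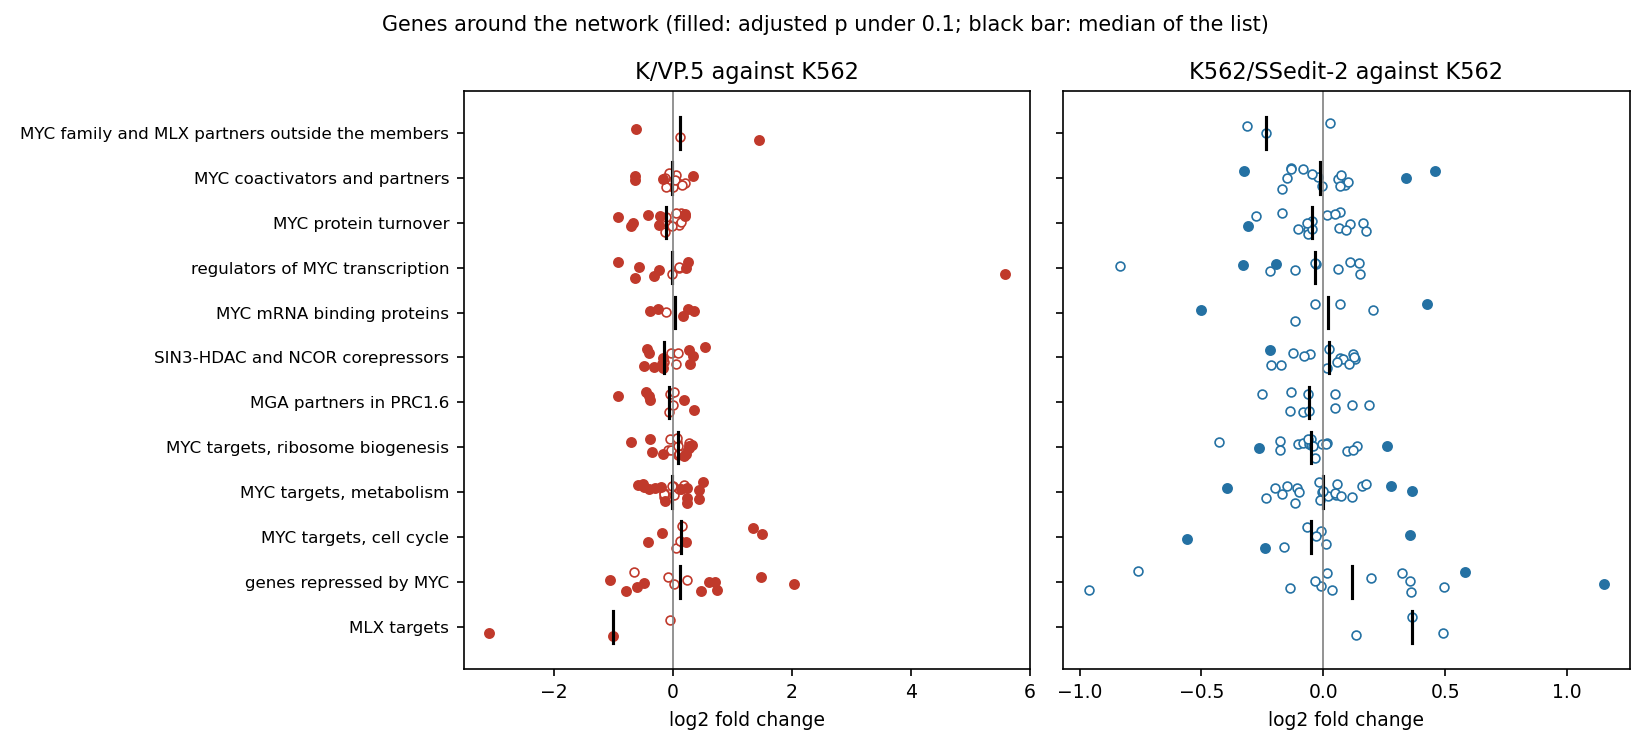
Log2 fold changes against K562 (x axes, which differ in scale between the panels) of the tested genes in each list around the network, in K/VP.5 (left) and K562/SSedit-2 (right), with genes called at an adjusted p under 0.1 filled and a black bar at the median of each list. The median of the MLX targets in K/VP.5 is -1.02, and the point far to the right among regulators of MYC transcription in K/VP.5 is LEF1.

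Among 11 regulators of MYC transcription, 3 were higher and 5 lower in K/VP.5, compared to 52.3% called of all tested genes. LEF1, a Wnt-responsive factor that binds MYC enhancers with β-catenin, was at 0.235 ± 0.060 CPM (SD, n = 4) in K562 and 11.4 ± 0.492 CPM (SD, n = 4) in K/VP.5 (log2 fold change 5.58, adjusted p = 1.7e-13 by edgeR), and at 0.131 ± 0.022 CPM (SD, n = 4) in K562/SSedit-2. The β-catenin gene CTNNB1 was higher by 0.26 in K/VP.5, and TCF7L2, another DNA-binding partner of β-catenin, was lower (log2 fold change -0.58, mean 5.35 CPM compared to 7.99 CPM in K562, adjusted p = 0.00476 by edgeR). PUF60, the other higher gene of this list, had a log2 fold change of 0.23 in K/VP.5 (adjusted p = 0.00481 by edgeR). STAT5A, which acts downstream of BCR-ABL1, was lower in both derived lines, at 603 ± 31.5 CPM (SD, n = 4) in K/VP.5 (log2 fold change -0.92, adjusted p = 1.34e-09 by edgeR) and 907 ± 36.3 CPM (SD, n = 4) in K562/SSedit-2 (log2 fold change -0.33, adjusted p = 0.00161 by edgeR), compared to 1139 ± 33.3 CPM (SD, n = 4) in K562. MYB (log2 fold change -0.64) and HNRNPK (-0.33), which binds the MYC promoter, were lower in K/VP.5. In K562/SSedit-2, 2 of the 11 genes, STAT5A and STAT5B, were called lower, compared to 12.6% called of all tested genes (7.79% lower). With the replicate block, MYB was called lower there too (log2 fold change -0.21, adjusted p = 0.0677 by edgeR), and without K562 replicate 1 the list had 1 gene higher and 2 lower. Without K562/SSedit-2 replicate 2, 1 gene was called.

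Of 6 proteins that bind MYC mRNA, 3 were higher and 2 lower in K/VP.5 (3 and 3 without K562 replicate 1), compared to 52.3% called of all tested genes. IGF2BP1, which protects MYC mRNA from decay, was at 784 ± 30.2 CPM (SD, n = 4) in K562, at 883 ± 9.76 CPM (SD, n = 4) in K/VP.5 (log2 fold change 0.17, adjusted p = 0.0179 by edgeR) and at 554 ± 28.3 CPM (SD, n = 4) in K562/SSedit-2 (log2 fold change -0.50, adjusted p = 2.05e-05 by edgeR).

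Of 17 genes acting on the stability of MYC protein, 2 were higher and 6 lower in K/VP.5 (3 and 6 without K562 replicate 1), a share near the 52.3% of all tested genes. In K562/SSedit-2, 1 (SKP2, log2 fold change -0.31) was lower, compared to 12.6% called of all tested genes. There, 3 genes were called without K562 replicate 4, and with the replicate block PIM2 was called lower too (-0.27, adjusted p = 0.0398 by edgeR). The kinase PIM2 (log2 fold change -0.92), the deubiquitinase USP7 (-0.71) and the ubiquitin ligase STUB1 (-0.68) were lower in K/VP.5. Of 16 MYC coactivators and partners, 1 was higher and 3 lower in K/VP.5 (2 and 3 without K562 replicate 1), compared to the same 52.3%, among them the ATPase EP400 (0.35), the acetyltransferase CREBBP (-0.64) and the remodeller subunit ACTL6A (-0.63). In K562/SSedit-2, KAT2B (0.46) and EP400 (0.34) were higher and KAT2A (-0.32) was lower, and without K562 replicate 1 the 16 genes had 3 higher and 2 lower. Over all tested genes, 12.6% were called in this comparison with all samples (4.86% higher and 7.79% lower).

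On the repressor side, 4 of 15 SIN3-HDAC and NCOR corepressor genes were higher and 7 lower in K/VP.5 (3 and 7 without K562 replicate 1, median -0.145), compared to 52.3% called of all tested genes, with SAP18 (0.54), SUDS3 (0.33) and SIN3B (0.28) higher and HDAC3 (-0.48), HDAC2 (-0.44) and SIN3A (-0.32) lower. Of 10 genes of the polycomb complex that holds MGA, 2 were higher and 4 lower (1 and 3 without K562 replicate 1), with the DNA-binding partner TFDP1 higher (0.35) and RYBP (-0.93), TFDP2 (-0.46) and PCGF6 (-0.38) lower. In K562/SSedit-2, none of the 10 polycomb genes passed the edgeR test (CBX3 alone had an unadjusted p under 0.05), DESeq2 called 1 and limma voom 0, and without K562 replicate 1 there were 1 higher and 1 lower. Of all tested genes, edgeR called 12.6% there with all samples. Of the other MYC family genes, MYCN had at most 1 count in a sample, and MYCL, at 6.42 ± 1.27 CPM (SD, n = 4) in K562, was lower in K/VP.5 (log2 fold change -0.63, adjusted p = 0.00471 by edgeR).

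Across the 12 samples, the genes whose log2 expression followed MYC most closely by Pearson correlation were SLC7A5, a leucine transporter gene (r = 0.988), DNAAF5 (0.987) and VENTX (0.986), and those that followed PVT1 were MDK (0.985), HPCAL1 (0.984) and CHRM4 (0.984). DNAAF5, an assembly factor of ciliary dynein, was at a mean of 83.8 CPM in K562, 144 CPM in K/VP.5 and 60.2 CPM in K562/SSedit-2. The 12 points are replicates of 3 lines, so these values mostly describe the differences between lines, and none of these genes lies on chromosome 8.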

How the data were processed

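Gene expression was measured by RNA-seq in 12 samples, 4 of each cell line. Per the labels and the study's methods, the authors mapped reads to GRCh38 with HISAT2 and counted them per gene with featureCounts; the deposited values are whole read counts without normalization. The annotation release and the settings for strand and multi-mapping reads are not given in the sources used here. Ensembl IDs were matched to GENCODE 44 (60401 of 60671).

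Counts were tested in R 4.3.3 with edgeR 4.0.16: filterByExpr with a minimum count of 10, TMM factors, 1 quasi-likelihood fit of all 12 samples, and Benjamini-Hochberg adjustment over 18626 genes. CPM values use TMM-scaled totals of the tested genes. Genes were called at an adjusted p under 0.1. Steps were tested on simulated data. Figures were drawn in Python 3.11.15 with matplotlib 3.10.9. Alternatives used DESeq2 1.42.0, limma 3.58.1, other scaling and filters, the replicate block and each sample left out.

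Replicate numbers come from the sample titles. For K562 against K562/SSedit-2, each of 4 pairs with a shared number deviated together from the group means (r across genes 0.123 to 0.27), so these were taken as paired. In the other comparisons they were not.

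The members and lists were chosen with earlier results of these data known. All members are named, and from each list up to 3 genes per direction with the largest change among called genes of at least 10 CPM in either line without overlap between replicates. Other genes were named after their values were seen. Some list genes are not reported here.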

Additional observations from a re-analysis of the deposited data

Results flagged for a closer look

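In 4 of 33 groups of 4 replicates (the 10 genes and the PVT1 to MYC ratio in 3 lines), a single sample lay far from the other 3, and chance marks about 1 in 20 such groups. For MXD1 in K562, the gap of replicate 1 (37.4 CPM) to the next sample was 0.945 of the whole range. For MXI1 in K562 it was 0.875, again for replicate 1 (27.7 CPM). For MLX in K/VP.5, replicate 2 was low (34.2 CPM), with a gap of 0.901 of the range. For MXD4 in K562/SSedit-2, replicate 4 was low (29.0 CPM), with a gap of 0.84 of the range. The cause was not tested.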

How the results depend on the processing

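The 6 members called in K/VP.5 against K562 and the 6 called in K562/SSedit-2 against K/VP.5 were called, in the same direction, under all 9 other settings and in all 12 fits that left out a sample. No member reached 2-fold under any of these. The 3 calls in K562/SSedit-2 against K562 were less stable: when only the 2 lines were fitted MXD1 was called and MYC and MXD4 were not, 0 members were called at an adjusted p under 0.05, and leaving out samples gave 0 to 3 calls, the 3 being MXD1, MXD4 and MXI1 (without K562 replicate 1), with 0 without K562 replicate 2 and 0 without K562/SSedit-2 replicate 4. Differences near 0 that were not called changed sign: MNT in K/VP.5 was -0.020 without a filter on low counts, -0.0064 with only 2 lines and -0.044 to 0.044 when a sample was left out, and MGA in K/VP.5 was 0.037 with upper-quartile scaling and -0.12 to 0.0042 when a sample was left out. In K562/SSedit-2 against K562, leaving out a sample gave -0.029 to 0.19 for PVT1, -0.13 to 0.038 for MXD3, -0.10 to 0.076 for MLX and -0.041 to 0.095 for MGA, and MGA was -0.00083 without a filter. MAX in K562/SSedit-2 against K/VP.5 was -0.0095 with upper-quartile scaling.

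With the length of the longest transcript in place of all exons, the share of MYC was 72.0% for K562, 77.0% for K/VP.5 and 69.8% for K562/SSedit-2, and that of MXD1 was 3.52%, 5.32% and 4.76%, so both kept their order between lines.

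With the replicate number as a block, no call of a member changed in any comparison (MYC in K562/SSedit-2 -0.163, adjusted p = 0.0977 by edgeR). The mean PVT1 to MYC difference between K562/SSedit-2 and K562 was 1.63 counts per 100, a mean that pairing cannot change. In K/VP.5 against K562 the correlations of same-numbered samples were -0.0015 to 0.254, and in K562/SSedit-2 against K/VP.5 -0.082 to 0.148, so these were not taken as paired, although number 1 correlated in both (0.254 and 0.148). The block raised the count of called genes in K562/SSedit-2 against K562 from 2 to 5 among genes repressed by MYC, from 0 to 2 among MLX targets and from 1 to 2 among turnover genes. Over all tested genes, it raised this count from 2356 to 3063. The cause of these changes was not tested. Gene counts do not measure isoforms or protein.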

Other observations

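Of 51 other annotated genes within 2 Mb of the MYC start, 7 were expressed enough to be tested. LINC02912, the nearest, 211.1 kb away, was at a mean of 0.413 CPM in K562, 0.554 CPM in K/VP.5 and 0.478 CPM in K562/SSedit-2 and did not pass edgeR's test. In K/VP.5, 3 of the 7 were higher and 1 lower, near the 52.3% called of all tested genes, and all lie more than 1 Mb from the MYC start: LRATD2 (log2 fold change 1.92, mean 2.53 CPM compared to 0.666 CPM in K562), KNOP1P5 (3.02, mean 0.789 compared to 0.091 CPM), ENSG00000285108 (0.59, mean 15.7 compared to 10.4 CPM) and LINC00861 (-1.32, mean 0.292 compared to 0.744 CPM). In K562/SSedit-2, CCDC26, a lncRNA gene 898.8 kb downstream, was higher (log2 fold change 0.77, adjusted p = 0.0386 by edgeR), compared to 12.6% called of all tested genes, and none of the 7 was called without K562 replicate 2. Apart from ENSG00000285108, all of these are expressed at under 3 CPM, and they were named after their values were seen.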
